A study of Homo sapiens with 12 samples.

Results

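Genes that 2 different guide RNAs moved the same way were sought by pooling the sgUFL1 and sgUFM1 libraries and setting them against all sgCtrl libraries of the same breast cancer line. A gene was counted as set apart when all 3 sgUFL1 and all 3 sgUFM1 libraries lay above, or all below, all 6 control libraries in GC-corrected level. Of the 14884 genes tested, 309 (2.08%) were set apart upward and 301 (2.02%) downward. These 610 genes (4.1%) are a description of the 12 libraries, because the same levels chose them. Of them, 246 higher (1.65% of genes tested) and 209 lower (1.4%) were also past the pooled test, and these 455 genes (3.06%) are called the shared genes here. The pooled test on its own called 370 genes higher (2.49%) and 317 lower (2.13%), 4.62% in all.

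All libraries came from MDA-MB-231, a long-established human line from triple-negative breast cancer with mesenchymal features. The guide groups were sgUFL1 (3 libraries) and sgUFM1 (3 libraries), and the control guide sgCtrl was given in 3 libraries titled to sgUFL1 and 3 titled to sgUFM1. Each guide group carries a guide RNA against the gene it is named for, and all 12 libraries carry a guide. The loss of UFL1 or UFM1 is called knockdown in one label and knockout in another. Nothing in the labels tells single clones from pools or says that replicates were grown separately, so p-values here reflect library-to-library spread that may be purely technical. In the pooled test that spread also holds differences between the guides and between the control sets.

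UFM1 is a small ubiquitin-like protein, and UFL1 is the ligase that joins it to target proteins, chiefly on the cytosolic face of the endoplasmic reticulum (ER). The best known target is a ribosomal protein of ribosomes docked at the ER translocon, and loss of the modification is known to disturb the clearance of stalled ribosomes and ER-phagy, the degradation of ER by autophagy. UFM1 and UFL1 act in the same conjugation step, and the question here is which genes both guides moved alike.

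Before any result, the names of the libraries need to be given, because the deposited tables disagree on them. Each FPKM column was proportional to exactly 1 count column, and for 6 of 12 libraries that count column had the same name. For the other 6, the libraries that the FPKM table names sgUFL1 stand in the count table as controls for sgUFM1, and the reverse. The names of the FPKM table are used here, and "sgUFL1 libraries" means the libraries labelled so in that table. Under the names of the count table, the pooled edgeR test called 0 genes higher and 0 lower, with 1991 genes at an unadjusted p under 0.05. In that naming 43 genes were set apart upward and 55 downward, DESeq2 called 84 higher and 90 lower, limma on FPKM called 1 higher and 0 lower, and none of the 455 shared genes was kept by any of these tests. The exchange places the sgUFL1 libraries among the controls and the sgUFM1 controls among the guides. No shared gene could therefore stay set apart, and its pooled change becomes smaller or reverses by construction. The loss of the shared genes does not bear on which names are right. Which table carries the right names was not tested, and every direction below holds for the names of the FPKM table.

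Each targeted transcript was lower, by a modest amount, in the libraries that the FPKM table names for its guide. The sgUFM1 libraries have the same name in both tables, so of these 2 genes UFL1 alone bears on the exchange of names. UFL1 read 14.1, 13.9 and 15.9 corrected CPM (read counts scaled to library size) in sgUFL1 libraries and 21.4, 23.7 and 22.4 in sgUFM1 libraries, against a lowest, median and highest value of 17.2, 19.6 and 22.0 in the 6 sgCtrl libraries. The sgUFL1 libraries lay below every control and the sgUFM1 libraries overlapped the upper controls. Against all controls the log2 difference of UFL1 was -0.43 for sgUFL1 (edgeR adjusted p = 0.016) and 0.20 for sgUFM1 (adjusted p = 0.20). UFM1 read 57.4, 67.5 and 67.7 CPM in sgUFL1 libraries and 39.1, 37.2 and 37.1 in sgUFM1 libraries, against 50.2, 54.8 and 59.1 (lowest, median, highest) in sgCtrl libraries. The sgUFM1 libraries lay below every control, with a log2 difference of -0.53 (adjusted p = 0.00056), while sgUFL1 gave 0.23 (adjusted p = 0.062). Neither gene was set apart by both guides, and none of the 10 genes of the UFMylation pathway tested was past the pooled test with edgeR, with 1 at an unadjusted p under 0.05 and 0 called by DESeq2.

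Totals ran from 15342793 to 18033331 counts over the 12 libraries. The count-weighted mean GC content was 49.8% to 50.9% in guide libraries and 48.3% to 50.5% in controls, which is why levels were corrected for GC content and gene length. Of 8 markers that MDA-MB-231 expresses, 7 averaged at least 1 FPKM and SPARC did not. Of 8 that it has little or none of, ERBB2, EPCAM, GATA3 and FOXA1 also averaged at least 1 FPKM. Of 16 luminal breast markers, 13 averaged at least 1 FPKM. Leukocyte markers were at or near 0 except CD14, with CD3E and MS4A1 among those at 0 in all libraries. The control libraries did not fall together by title: sgCtrl to sgUFL1 replicate 2 correlated best with sgCtrl to sgUFM1 replicate 2, and sgCtrl to sgUFM1 replicate 1 with sgCtrl to sgUFL1 replicate 1 (r = 0.993 each, against at most 0.985 and 0.986 within their own set). Without these 2 control libraries, a choice made after seeing the data, the pooled test called 120 genes higher and 105 lower in place of 370 and 317, and 197 of the 455 shared genes stayed set apart and called. Of the 70 named genes called, 22 lost their call there, among them HLA-F (adjusted p = 0.054), IFITM1 (0.066), LSS (0.073) and SUSD3 (0.096).

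The most abundant transcript to fall was MMP1, which encodes interstitial collagenase, a secreted protease that cuts fibrillar collagen. It read 1705, 1893 and 1873 CPM in sgUFL1 libraries and 1013, 1030 and 1060 CPM in sgUFM1 libraries, against 5848, 6236 and 6719 CPM (lowest, median, highest) in sgCtrl libraries. Every guide library lay far below the lowest control, and the sgUFM1 libraries lay below the sgUFL1 libraries. The pooled log2 change was -2.13 ± 0.16 (SE, 6 against 6 libraries, edgeR adjusted p = 5.3e-06). MMP3, which encodes stromelysin 1, a protease of proteoglycans and an activator of other matrix proteases, read 5.45, 7.47 and 6.74 CPM in sgUFL1 libraries and 6.42, 6.26 and 5.23 CPM in sgUFM1 libraries, against 10.3, 39.8 and 73.0 CPM (lowest, median, highest) in sgCtrl libraries. The guide libraries were tightly grouped while the controls fell into 3 low and 3 high values, so its log2 change of -2.68 had a wide SE of 0.45 (adjusted p = 0.0046). Both genes are neighbours on chromosome 11 (GRCh38, chr11:102789920-102798160 and chr11:102835801-102843803), and the pseudogene WTAPP1 overlaps both on the other strand. WTAPP1 itself was set apart downward with a log2 change of -2.45 (adjusted p = 0.00017), at 0.566 CPM in guide libraries and 3.14 CPM in controls; strand is not stated for these counts, so its reads and those of the proteases cannot be told apart.

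**Figure D1:**
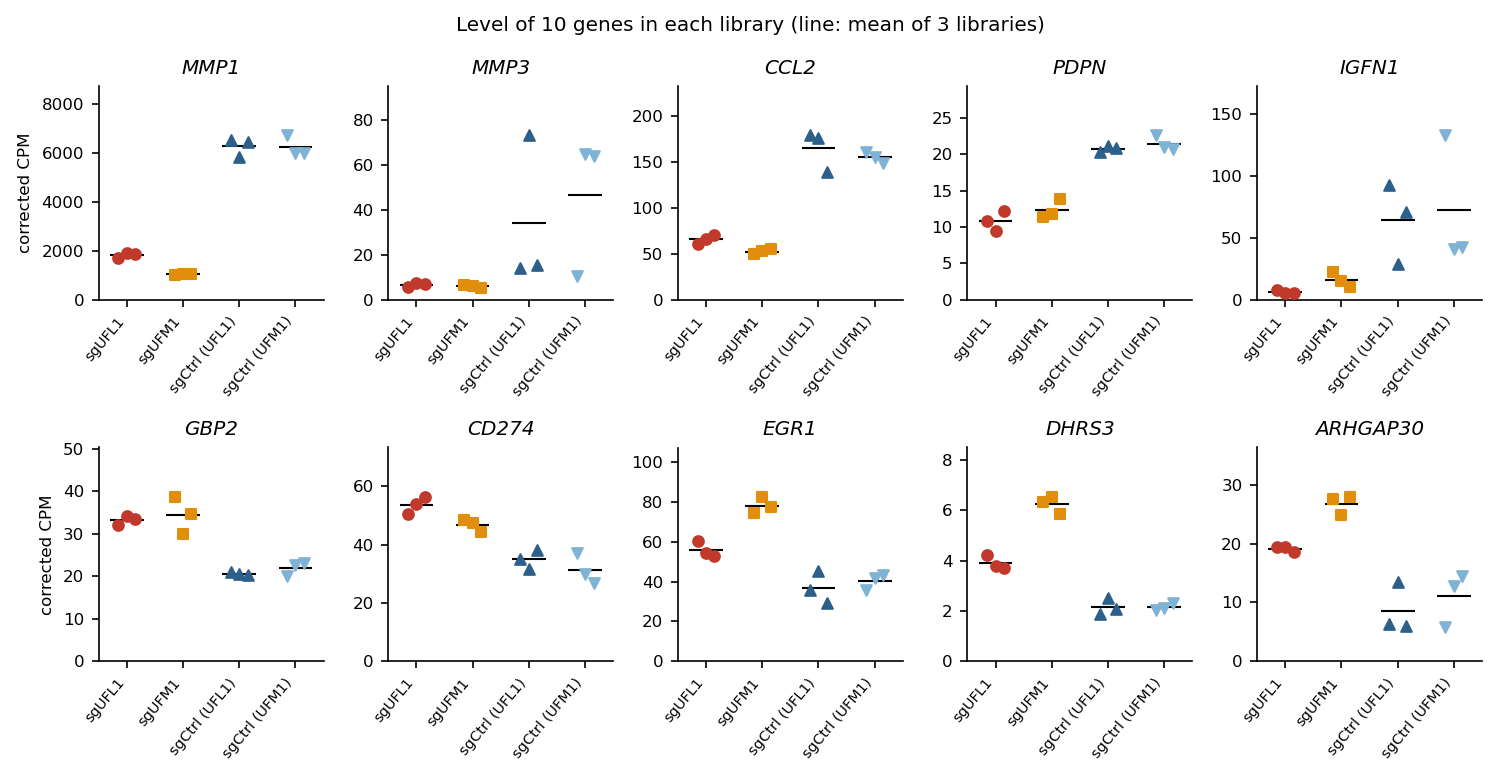
GC- and length-corrected CPM (linear axis from 0) of 10 genes in each library, with sgUFL1 (red circles), sgUFM1 (orange squares), sgCtrl to sgUFL1 (dark blue triangles) and sgCtrl to sgUFM1 (light blue inverted triangles), 3 libraries each, and a line at each group's mean. MMP1, MMP3, CCL2, PDPN and IGFN1 were lower and GBP2, CD274, EGR1, DHRS3 and ARHGAP30 higher in all 6 guide libraries than in all 6 controls, and the controls of MMP3, IGFN1 and ARHGAP30 fell into separate high and low values.

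Of the other matrix genes tested, FN1 and TIMP3 rose, so that the list of 36 matrix and protease genes had 2 called higher and 2 lower, with a median log2 change of 0.13, against 2.49% called higher, 2.13% called lower and a median of -0.00 over all genes. FN1 (fibronectin) read 225, 232 and 226 CPM in sgUFL1 libraries and 218, 212 and 227 CPM in sgUFM1 libraries, against 158, 170 and 197 CPM (lowest, median, highest) in sgCtrl libraries. Guides and controls did not overlap, and the log2 change was 0.38 ± 0.06 (adjusted p = 0.0042). TIMP3, an inhibitor of matrix proteases, had a log2 change of 0.37 (adjusted p = 0.015). HTRA1, a secreted serine protease, read 24.0, 24.5 and 24.9 CPM in sgUFL1 libraries and 23.0, 24.0 and 19.4 CPM in sgUFM1 libraries, against 11.4, 13.6 and 16.5 CPM (lowest, median, highest) in sgCtrl libraries. Its lowest guide library, sgUFM1 replicate 3, still lay above the highest control, and HTRA1 rose by 0.74 ± 0.10 on the log2 scale (adjusted p = 0.0024).

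CCL2, the chemokine that draws monocytes, gave the smallest adjusted p of the genes named here. It read 61.0, 65.7 and 70.9 CPM in sgUFL1 libraries and 49.7, 52.5 and 54.8 CPM in sgUFM1 libraries, against 139, 158 and 179 CPM (lowest, median, highest) in sgCtrl libraries. The highest guide library was at about the middle between 0 and the lowest control, and the log2 change was -1.44 ± 0.09 (adjusted p = 5.7e-07). IL1A (interleukin 1 alpha) was low in all libraries: 0.652, 0.778 and 0.430 CPM in sgUFL1 libraries and 1.27, 0.869 and 0.660 CPM in sgUFM1 libraries, against 1.44, 1.81 and 2.36 CPM (lowest, median, highest) in sgCtrl libraries. It fell by 1.25 on the log2 scale (SE 0.25, adjusted p = 0.011). Its promoter is shown here, with those of ISG20 and CD274, since these 3 genes of the inflammatory, interferon and checkpoint lists have promoters in the RefSeq table (GRCh38.p14, 250 bases before to 50 after the first listed start) that hold a match to the motif for their usual class of regulator. The 3 were picked after the matches were seen, and MMP1, MMP3, CCL2, GBP2 and ESRP1 were not found in that table. Capitals mark matches on either strand to the AP-1 letters TGANTCA in IL1A (2 matches) and to the interferon-stimulated response element (GAAA, any 2 bases, GAAA) in ISG20 (1 match) and CD274 (2 overlapping matches, on the reverse strand), at chr2:112784444-112784743 (minus strand), chr15:88638766-88639065 (plus strand) and chr9:5450292-5450591 (plus strand).
IL1A: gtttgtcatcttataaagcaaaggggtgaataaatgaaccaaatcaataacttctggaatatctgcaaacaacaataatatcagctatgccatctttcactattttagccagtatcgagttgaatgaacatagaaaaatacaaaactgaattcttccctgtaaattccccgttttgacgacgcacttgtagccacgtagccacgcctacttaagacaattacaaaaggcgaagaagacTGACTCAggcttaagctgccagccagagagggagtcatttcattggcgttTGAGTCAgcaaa
ISG20: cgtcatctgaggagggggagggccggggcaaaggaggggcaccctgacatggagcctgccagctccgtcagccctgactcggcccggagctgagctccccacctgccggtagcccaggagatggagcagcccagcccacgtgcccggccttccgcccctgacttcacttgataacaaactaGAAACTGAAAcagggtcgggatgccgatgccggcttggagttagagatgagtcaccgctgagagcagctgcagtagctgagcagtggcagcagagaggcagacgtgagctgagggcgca
CD274: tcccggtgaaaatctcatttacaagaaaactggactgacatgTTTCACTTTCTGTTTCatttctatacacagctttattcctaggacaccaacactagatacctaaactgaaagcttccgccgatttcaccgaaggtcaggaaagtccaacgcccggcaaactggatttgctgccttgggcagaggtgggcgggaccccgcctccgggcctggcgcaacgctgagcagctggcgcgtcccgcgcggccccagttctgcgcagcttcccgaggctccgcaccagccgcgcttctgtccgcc

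Matches of this kind were not more than a description. The AP-1 letters stood in the promoters of 10 of 185 shared genes that were higher (5.41%) and 8 of 160 that were lower (5%), against 4.76% of 10444 promoters of tested genes and 7.76% of all 27305. The interferon element stood in 8 of 185 higher (4.32%) and 4 of 160 lower (2.5%), against 2.85% of tested and 3.65% of all promoters.

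Along with CCL2 and IL1A, the inflammatory list held 3 more genes that fell, all of them feedback regulators of NF-kB signalling, the pathway that switches on inflammatory genes. TNFAIP3, which encodes the deubiquitinase A20, read 32.0, 36.1 and 31.6 CPM in sgUFL1 libraries and 35.8, 36.2 and 36.1 CPM in sgUFM1 libraries, against 40.1, 44.9 and 48.0 CPM (lowest, median, highest) in sgCtrl libraries. The groups did not overlap, and TNFAIP3 fell by 0.35 on the log2 scale (adjusted p = 0.0073). NFKBIE, an inhibitor of nuclear NF-kB, changed by -0.29 (adjusted p = 0.012) and BIRC3, a ubiquitin ligase of the same pathway, by -0.35 (adjusted p = 0.014). In the other direction, the cytokines IL11 (0.50, adjusted p = 0.029) and TNFSF15 (0.59, adjusted p = 0.032) rose. So 2 of 30 tested were higher (6.67%) and 5 lower (16.7%), beside 2.49% and 2.13% of all genes. The rest of the list did not move as one, and the guides pulled it apart: its median log2 difference from all controls was -0.22 for sgUFL1 and 0.34 for sgUFM1, and 17 of the 30 genes differed between the guides in their own test, beside 14.2% of all genes. IL6, CXCL8 and PTGS2 were examples that did not pass the pooled test, with PTGS2 at -0.21 for sgUFL1 and 1.35 for sgUFM1.

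Genes for cholesterol synthesis fell in part, by small amounts. Of 25 genes of the pathway tested, 6 were lower (24%) and 0 higher in the pooled test, beside 2.13% and 2.49% of all genes. All 6 were set apart downward, beside 2.02% of all genes, and the list's median log2 change was -0.08. FDFT1, which encodes squalene synthase, the committed step to sterols, read 90.3, 101 and 101 CPM in sgUFL1 libraries and 81.3, 84.4 and 89.2 CPM in sgUFM1 libraries, against 117, 123 and 129 CPM (lowest, median, highest) in sgCtrl libraries. The groups did not overlap, and its log2 change was -0.43 ± 0.06 (adjusted p = 0.0024). HSD17B7, an enzyme of the later steps, read 8.34, 9.06 and 9.20 CPM in sgUFL1 libraries and 8.66, 9.90 and 8.03 CPM in sgUFM1 libraries, against 11.1, 12.5 and 13.0 CPM (lowest, median, highest) in sgCtrl libraries, a log2 change of -0.48 in each guide (pooled adjusted p = 0.007). LSS, lanosterol synthase, fell by 0.26 (adjusted p = 0.016), DHCR7 by 0.28 (adjusted p = 0.022) and MVK, mevalonate kinase, by 0.28 (adjusted p = 0.045). The regulators SREBF1 (0.08), SREBF2 (-0.08) and INSIG1 (-0.30) did not pass the test. Without the offsets for GC content and length, LSS lost its call (-0.13, adjusted p = 0.57), while FDFT1 and HSD17B7 kept theirs (adjusted p = 0.012 each).

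Of 18 targets of NRF2, the antioxidant transcription factor, 3 were lower (16.7%) and 0 higher, beside 2.13% and 2.49% of all genes. Their median log2 change was -0.14. TALDO1, transaldolase of the pentose phosphate pathway, read 151, 151 and 146 CPM in sgUFL1 libraries and 153, 157 and 160 CPM in sgUFM1 libraries, against 166, 189 and 205 CPM (lowest, median, highest) in sgCtrl libraries. The groups did not overlap, and TALDO1 fell by 0.29 on the log2 scale (adjusted p = 0.011). The ferritin light chain gene FTL, at 1590 to 2054 CPM in guide libraries and 1841 to 3233 CPM in controls, overlapped between groups (log2 change -0.46, adjusted p = 0.038). Neither TALDO1 nor FTL kept its call without the GC and length offsets (-0.18 and -0.32, adjusted p = 0.27 and 0.26), and FTL lost it with the GC offsets alone (adjusted p = 0.074). NQO1 and HMOX1, widely used readouts of NRF2, gave -0.32 and -0.18 and did not pass.

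**Figure D2:**
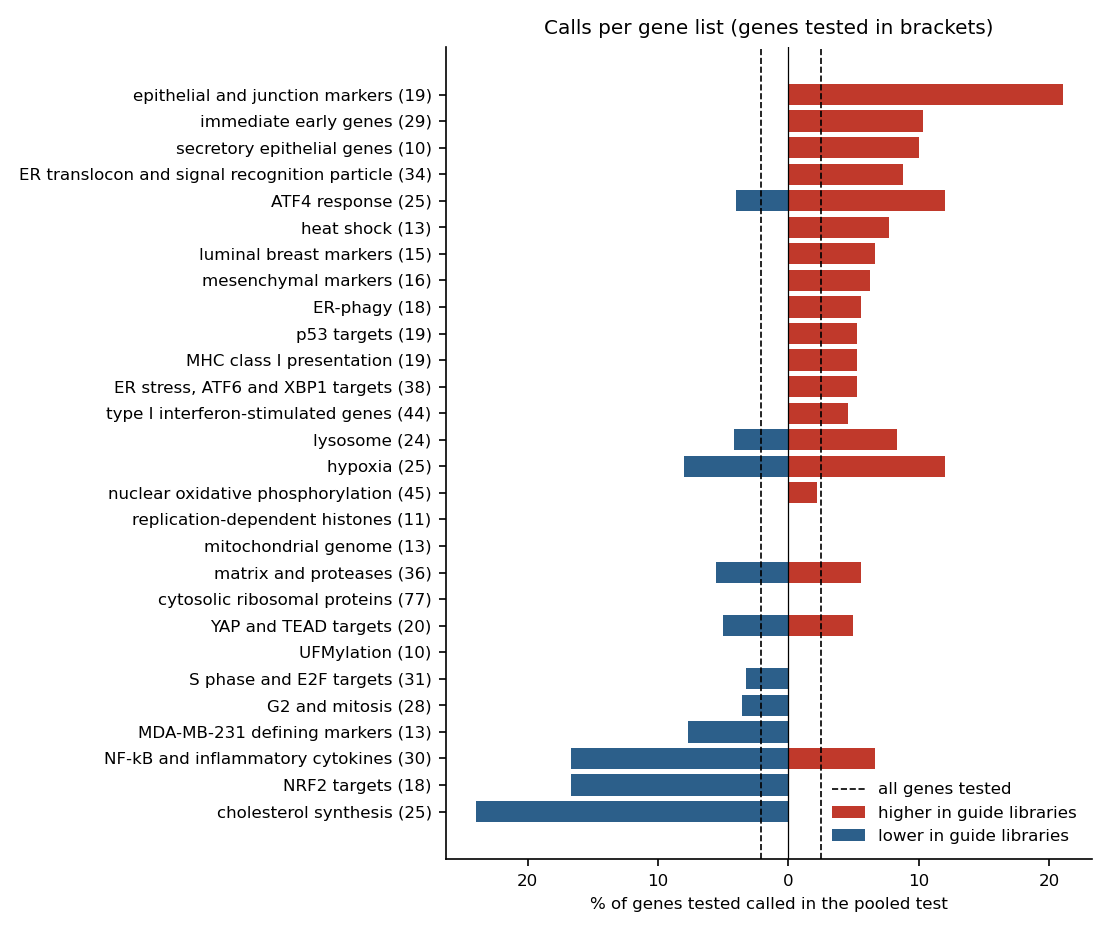
Share of the genes tested in each of 28 gene lists with at least 10 genes tested that was called in the pooled edgeR test (adjusted p under 0.05), to the right in red where higher and to the left in blue where lower in the 6 guide libraries than in the 6 controls; dashed lines give the same shares over all genes tested, 2.49% and 2.13%. Cholesterol synthesis stood farthest to the left (24%) and epithelial and junction markers farthest to the right (21.1%), each on a small number of genes.

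Some epithelial genes were among those that rose. Of 19 epithelial and junction markers tested, 4 were higher (21.1%) and 0 lower in the pooled test, beside 2.49% and 2.13% of all genes. Their median log2 change was 0.09. Against all controls, sgUFL1 alone had 5 higher and 1 lower and sgUFM1 alone 3 higher and 4 lower. CLDN7 (claudin 7 of tight junctions) read 28.5, 28.4 and 29.9 CPM in sgUFL1 libraries and 26.1, 27.6 and 25.7 CPM in sgUFM1 libraries, against 12.7, 17.8 and 24.2 CPM (lowest, median, highest) in sgCtrl libraries. The groups came close without overlapping, and CLDN7 rose by 0.58 ± 0.12 (adjusted p = 0.013). ESRP1, an epithelial splicing regulator that mesenchymal cells usually lack, had 0.667 to 1.34 CPM in guide libraries, against 0.202 to 0.446 CPM in controls, and rose by 1.54 from that low level (adjusted p = 0.0095). OCLN, occludin, rose by 0.45 (adjusted p = 0.033). DSP, desmoplakin of desmosomes, was called as well (0.42, adjusted p = 0.033), but its sgUFM1 libraries (48.3 to 57.0 CPM) overlapped the controls (40.7 to 51.9 CPM), and only the sgUFL1 comparison was past the threshold. The keratins KRT7, KRT8, KRT18 and KRT19 did not pass the test, and of 16 mesenchymal markers FN1 alone was called, upward (6.25%, beside 2.49% of all genes). CA12, a carbonic anhydrase of luminal breast cells, rose by 0.64 (adjusted p = 0.0021). It was the single called gene of 15 luminal markers tested (6.67% higher, beside 2.49% of all genes). Against all controls, sgUFL1 alone had 1 of the 15 higher and 1 lower and sgUFM1 alone 6 higher and 3 lower. Of the 15, 9 differed between the guides, beside 14.2% of all genes. EGFR, a defining marker of the line, was called lower by 0.30 (adjusted p = 0.038) with 304 to 397 CPM in guide libraries and 387 to 472 CPM in controls; this call held in 3 of the 12 fits that left out 1 library.

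The genes that rose most in both guides, among protein-coding genes averaging at least 5 CPM in either group, were of mixed function. ARHGAP30, a GTPase-activating protein, read 19.5, 19.4 and 18.6 CPM in sgUFL1 libraries and 27.6, 24.9 and 28.0 CPM in sgUFM1 libraries, against 5.79, 9.57 and 14.5 CPM (lowest, median, highest) in sgCtrl libraries. The 3 sgUFM1 libraries were highest and the controls were split, and ARHGAP30 rose by 1.22 ± 0.23 (adjusted p = 0.0078). DHRS3, a retinal reductase, read 4.20, 3.77 and 3.72 CPM in sgUFL1 libraries and 6.32, 6.54 and 5.85 CPM in sgUFM1 libraries, against 1.89, 2.11 and 2.50 CPM (lowest, median, highest) in sgCtrl libraries, and rose by 1.22 ± 0.18 (adjusted p = 0.0031). Every control of DHRS3 lay under 5 CPM, so DHRS3 met the 5 CPM minimum only through the guide libraries, where it was high. CYTH4, an exchange factor for ARF GTPases, rose by 1.09 (adjusted p = 0.004), the protocadherin PCDH1 by 1.06 (adjusted p = 0.0046) and RCN3, a calcium-binding protein of the ER lumen, by 0.89 (adjusted p = 0.0042). GPC4 (a glypican), AQP3 (a water and glycerol channel), GNAO1 (a G protein subunit), CDC42EP5 (a CDC42 effector) and SUSD3 rose by 0.69 to 0.87. Each of these 10 genes was set apart, and the guides differed from each other for ARHGAP30 by less than the test could call (adjusted p = 0.27), while DHRS3 and CYTH4 were higher in sgUFM1 than in sgUFL1 libraries by 0.68 and 0.73.

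**Figure D3:**
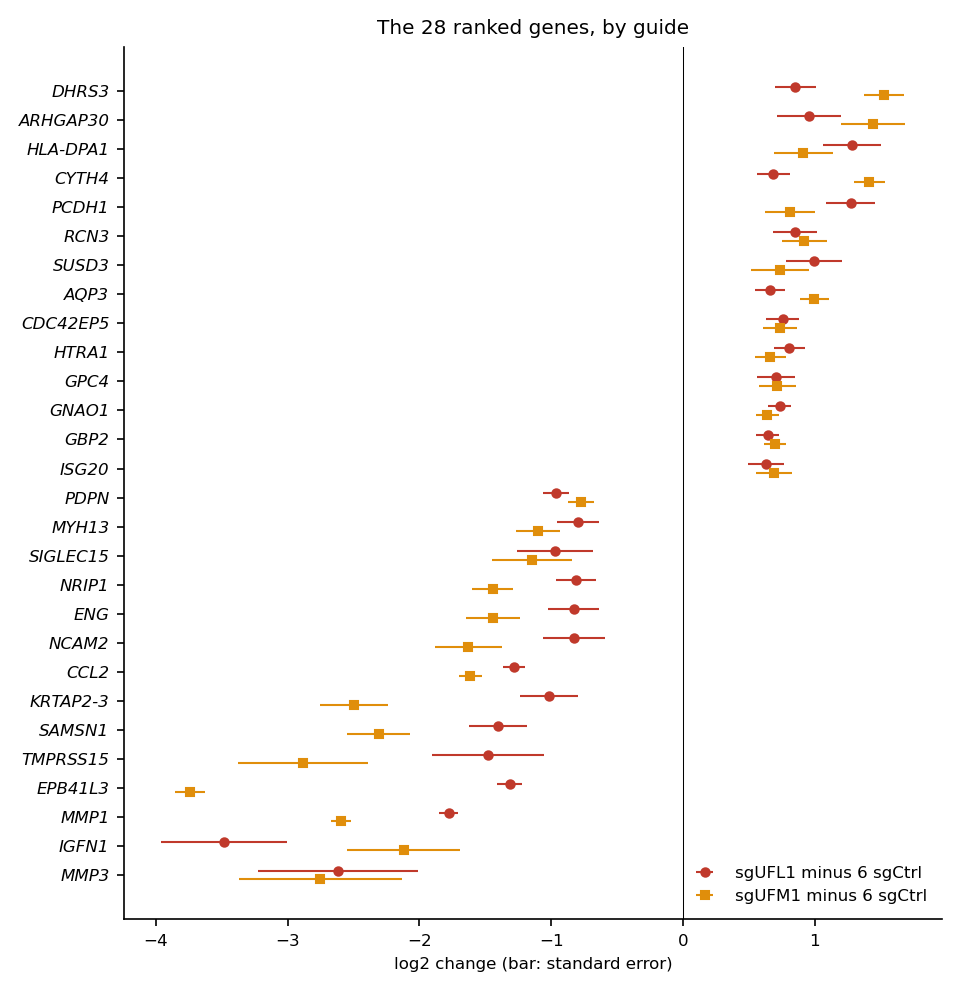
Log2 change of the 14 highest and 14 lowest shared protein-coding genes in sgUFL1 (red circles) and in sgUFM1 (orange squares) against the same 6 sgCtrl libraries, with the standard error from the edgeR model as bars. Changes ran from -3.74 for EPB41L3 in sgUFM1 to 1.53 for DHRS3 in sgUFM1, and the guides were unequal for EPB41L3, KRTAP2-3, MMP1 and CYTH4 among others.

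A few genes of antigen presentation and interferon responses rose. GBP2, an interferon-inducible GTPase, read 32.1, 34.1 and 33.5 CPM in sgUFL1 libraries and 38.8, 30.1 and 34.7 CPM in sgUFM1 libraries, against 20.2, 20.8 and 23.2 CPM (lowest, median, highest) in sgCtrl libraries. It rose by 0.67 ± 0.07 (adjusted p = 0.00026), though GBP7 overlaps it on the same strand, while its relatives GBP1 (-0.01) and GBP3 (-0.13) did not pass. ISG20, an interferon-induced exonuclease, read 12.9, 15.5 and 14.9 CPM in sgUFL1 libraries and 16.3, 14.4 and 14.5 CPM in sgUFM1 libraries, against 7.80, 8.58 and 11.8 CPM (lowest, median, highest) in sgCtrl libraries, and rose by 0.66 (adjusted p = 0.0052). With IFITM1 (0.51, adjusted p = 0.022) it was 1 of 2 called higher among 44 type I interferon-stimulated genes tested, with 0 lower and a median log2 change of 0.01 (4.55% called higher, beside 2.49% of all genes). Against all controls, sgUFL1 alone had 2 of these 44 higher and 6 lower (median -0.17) and sgUFM1 alone 5 higher and 1 lower (median 0.13). IFITM1 overlaps IFITM2 and shares sequence with it, so its count is uncertain. CD274, which encodes the checkpoint ligand PD-L1, read 50.6, 53.7 and 56.4 CPM in sgUFL1 libraries and 48.5, 47.6 and 44.2 CPM in sgUFM1 libraries, against 26.9, 33.3 and 38.3 CPM (lowest, median, highest) in sgCtrl libraries. It rose by 0.59 ± 0.09 (adjusted p = 0.0031) and was the only called gene of 7 checkpoint ligands tested (14.3% higher, beside 2.49% of all genes). Its call was lost without the GC and length offsets (0.43, adjusted p = 0.088).

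Of the HLA genes, HLA-DPA1, the alpha chain of a class II molecule, read 4.88, 6.46 and 7.92 CPM in sgUFL1 libraries and 4.56, 5.48 and 4.80 CPM in sgUFM1 libraries, against 1.89, 2.61 and 3.46 CPM (lowest, median, highest) in sgCtrl libraries. It rose by 1.11 (adjusted p = 0.0064), and it met the 5 CPM minimum for naming only through the guide libraries, where it was high. CD74, the invariant chain that escorts class II molecules and was looked up after HLA-DPA1 was seen, rose by 0.50 (adjusted p = 0.011), at 128 CPM in guide libraries and 90.5 CPM in controls. The class II activator CIITA (0.24), HLA-DRA (0.88) and HLA-DPB1 (1.46) did not pass the test. HLA-F, a nonclassical class I gene, rose by 0.98 (adjusted p = 0.011). It was the single called gene of 19 in the class I list (5.26% higher, beside 2.49% of all genes). HLA-DPA1 and HLA-DPB1 overlap on opposite strands, HLA genes share sequence, and how reads that match several of them were counted is not stated, so these values are uncertain.

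Of the immediate early genes, which growth signals switch on, EGR1 moved most. EGR1, an immediate early transcription factor, read 60.3, 54.4 and 53.1 CPM in sgUFL1 libraries and 74.3, 82.7 and 77.7 CPM in sgUFM1 libraries, against 29.3, 38.8 and 45.2 CPM (lowest, median, highest) in sgCtrl libraries. The 3 groups of values did not overlap, and EGR1 rose by 0.80 ± 0.13 (adjusted p = 0.004). The AP-1 member FOSL2 (0.24, adjusted p = 0.038) and KLF4 (0.25, adjusted p = 0.041) completed the 3 of 29 immediate early genes called, with 0 lower and a median of 0.10. That was 10.3% called higher, beside 2.49% of all genes. Against all controls, sgUFL1 alone had 4 of the 29 higher and 2 lower, beside 5.18% and 4.91% of all genes. In sgUFM1 alone 10 were higher and 2 lower, beside 7.04% and 6.19% of all genes. Of the 29, 14 differed between the guides, beside 14.2% of all genes. Both smaller calls were lost when most single libraries were left out, since FOSL2 kept its call in 2 and KLF4 in 1 of 12 such fits. EGR1 kept its call in all 12.

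Genes of the ER, where the modification acts, moved little in both guides together. Of 34 genes of the translocon and signal recognition particle, 3 were called higher (8.82%, beside 2.49% of all genes) and 0 lower. These were SEC11A, a signal peptidase subunit, SEC62, a translocon and ER-phagy protein, and DAD1, an oligosaccharyltransferase subunit. SEC11A read 93.5, 106 and 108 CPM in sgUFL1 libraries and 96.2, 98.5 and 102 CPM in sgUFM1 libraries, against 69.4, 79.0 and 89.2 CPM (lowest, median, highest) in sgCtrl libraries, a log2 change of 0.35 (adjusted p = 0.017). SEC62 and DAD1 changed by 0.25 and 0.22 (adjusted p = 0.044 and 0.038), with overlap between the groups, and held in 4 and 2 of the 12 fits that left out 1 library. Over these 34 genes the median was -0.07 for sgUFL1 and 0.15 for sgUFM1. Against all controls, sgUFL1 alone had 2 higher and 3 lower and sgUFM1 alone 14 higher and 0 lower. The guides differed from each other for 11 of the 34, beside 14.2% of all genes. Of 38 targets of the unfolded protein response, the reaction to misfolded protein in the ER, SELENOK (0.39, adjusted p = 0.0061) and MANF (0.23, adjusted p = 0.048) were called higher and 0 lower. That was 5.26% called higher, beside 2.49% of all genes, with a list median of 0.08, and MANF held in 2 of those 12 fits. The guides differed here: the median over these 38 genes was -0.03 for sgUFL1 and 0.24 for sgUFM1, with 16 genes past the test of the difference between the guides, beside 14.2% of all genes. Of 25 ATF4 response genes, DDIT4, VLDLR and PCK2 were called higher (0.50, 0.43 and 0.42) and GDF15 lower (-0.75), and none of the 4 was set apart by both guides. That was 12% higher and 4% lower, beside 2.49% and 2.13% of all genes. VLDLR held in 2, PCK2 in 3 and GDF15 in 6 of the 12 fits that left out 1 library. Of 18 ER-phagy genes SEC62 alone was called (5.56% higher, beside 2.49% of all genes).

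Of 77 cytosolic ribosomal protein genes, 0 passed the pooled edgeR test, with 17 at an unadjusted p under 0.05 (22.1%, beside 20.9% of all genes tested) and 8 called by DESeq2 (10.4%, beside 8.24%); their median was 0.13, with 0.24 for sgUFL1 and 0.00 for sgUFM1. Of 13 genes of the mitochondrial genome (median -0.05) and 11 replication-dependent histones (median -0.05), 0 passed by edgeR or DESeq2, with 2 and 0 at an unadjusted p under 0.05. CDC20, an activator of the anaphase-promoting complex, fell by 0.30 (adjusted p = 0.011). It was the only called gene of 28 G2 and mitosis genes (3.57% lower, beside 2.13% of all genes). POLE, a replicative polymerase, fell by 0.20 (adjusted p = 0.045) as the only called gene of 31 S phase genes (3.23% lower). Without the GC and length offsets neither CDC20 nor POLE was called (-0.12 and -0.09, adjusted p = 0.59 and 0.58). POLE was not called with the GC offsets alone either (adjusted p = 0.15). Among 25 hypoxia genes tested, the collagen-modifying enzymes P4HA2 (0.48, adjusted p = 0.0055) and LOX (0.30, adjusted p = 0.026) and NDRG1 (0.30) rose while ADM (-0.40) and KDM3A (-0.30) fell. That was 12% higher and 8% lower, beside 2.49% and 2.13% of all genes. Of 24 lysosomal genes 2 were called higher (8.33%) and 1 lower (4.17%), beside 2.49% and 2.13% of all genes. The protease CTSL rose by 0.37 (adjusted p = 0.0042) and the proton pump subunit ATP6V0D1 fell by 0.26 (adjusted p = 0.038). HSPB1, a small heat shock protein (0.32, adjusted p = 0.0046), was the only called gene of 13 heat shock genes tested (7.69%). XPC, a DNA damage sensor (0.34, adjusted p = 0.041), was the only one of 19 p53 targets (5.26%). NDUFB9, a subunit of respiratory complex I (0.39, adjusted p = 0.0497), was the only one of 45 nuclear oxidative phosphorylation genes (2.22%). Over all genes 2.49% were called higher. Of 20 YAP and TEAD targets, CTGF (0.24) was called higher and AMOTL2 (-0.28) lower (5% each, beside 2.49% and 2.13% of all genes). Of the 12 fits that left out 1 library, AMOTL2 kept its call in 1, CTGF, XPC and POLE in 2, NDUFB9 and ATP6V0D1 in 3, ADM in 4 and LOX in 7. Without the GC and length offsets CTGF kept its call (adjusted p = 0.036). LOX (0.46), ADM (0.34), ATP6V0D1 (0.50), XPC (0.057), NDUFB9 (0.12) and AMOTL2 (0.51) lost theirs there.

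Other genes that fell most were again of mixed kinds. IGFN1, a protein of muscle by its known expression, read 7.78, 4.93 and 5.47 CPM in sgUFL1 libraries and 22.0, 14.9 and 9.79 CPM in sgUFM1 libraries, against 28.5, 56.6 and 132 CPM (lowest, median, highest) in sgCtrl libraries. The controls spread widely, and the log2 change was -2.66 ± 0.40 (adjusted p = 0.0032). EPB41L3, a membrane skeleton protein described as a growth suppressor, read 28.0, 29.9 and 28.3 CPM in sgUFL1 libraries and 5.46, 5.24 and 5.32 CPM in sgUFM1 libraries, against 60.3, 70.6 and 82.9 CPM (lowest, median, highest) in sgCtrl libraries. The 3 groups stood well apart from each other, with log2 differences of -1.32 for sgUFL1 and -3.74 for sgUFM1 and a difference between the guides of -2.43 (adjusted p = 2.6e-08). PDPN, podoplanin, a surface glycoprotein of lymphatic vessels and invasive cells, read 10.8, 9.46 and 12.2 CPM in sgUFL1 libraries and 11.4, 11.8 and 13.8 CPM in sgUFM1 libraries, against 20.3, 20.9 and 22.6 CPM (lowest, median, highest) in sgCtrl libraries. It was lower by a similar amount in each guide (-0.96 and -0.78) and changed by -0.87 ± 0.09 pooled (adjusted p = 0.00014). ENG, endoglin, a coreceptor for TGF-beta family ligands, fell by 1.10 (adjusted p = 0.0046), the hair keratin-associated gene KRTAP2-3 by 1.55 (adjusted p = 0.0095), SIGLEC15 by 1.05 (adjusted p = 0.019) and the myosin gene MYH13 by 0.94 (adjusted p = 0.003). MYH13 averaged under 5 CPM in guide libraries, so it met the 5 CPM minimum for naming only through the controls.

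The genes set apart by both guides were counted by chromosome, to be read beside 2.08% upward and 2.02% downward over all genes tested. Of 690 genes tested on chromosome 5, 51 were set apart upward (7.39%) and 2 downward (0.29%). On chromosome 3 the counts were 36 and 1 of 839 (4.29% and 0.12%), and on chromosome 9 they were 37 and 5 of 571 (6.48% and 0.88%). More were set apart downward on chromosome 12 (11 upward and 41 downward of 807, 1.36% and 5.08%) and chromosome 11 (6 and 29 of 825, 0.73% and 3.52%). The same held for chromosome 20 (2 and 16 of 405, 0.49% and 3.95%) and chromosome 21 (0 and 11 of 150, 0% and 7.33%). Per-library chromosome medians did not overlap between the 6 guide and the 6 control libraries for 10 of 23 chromosomes. On chromosome 5 they ran from 0.01 to 0.11 on the log2 scale around the mean of all libraries in guide libraries, against -0.09 to -0.02 in controls. On chromosome 12 they ran from -0.06 to -0.01 in guide libraries, against -0.01 to 0.10 in controls. Medians also set single groups apart: chromosome 18 ran from -0.15 to -0.13 in sgUFM1 libraries alone, and chromosome 15 was low (-0.17, -0.15 and -0.13) in sgCtrl to sgUFL1 replicates 1 and 3 and sgCtrl to sgUFM1 replicate 1.

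**Figure D4:**
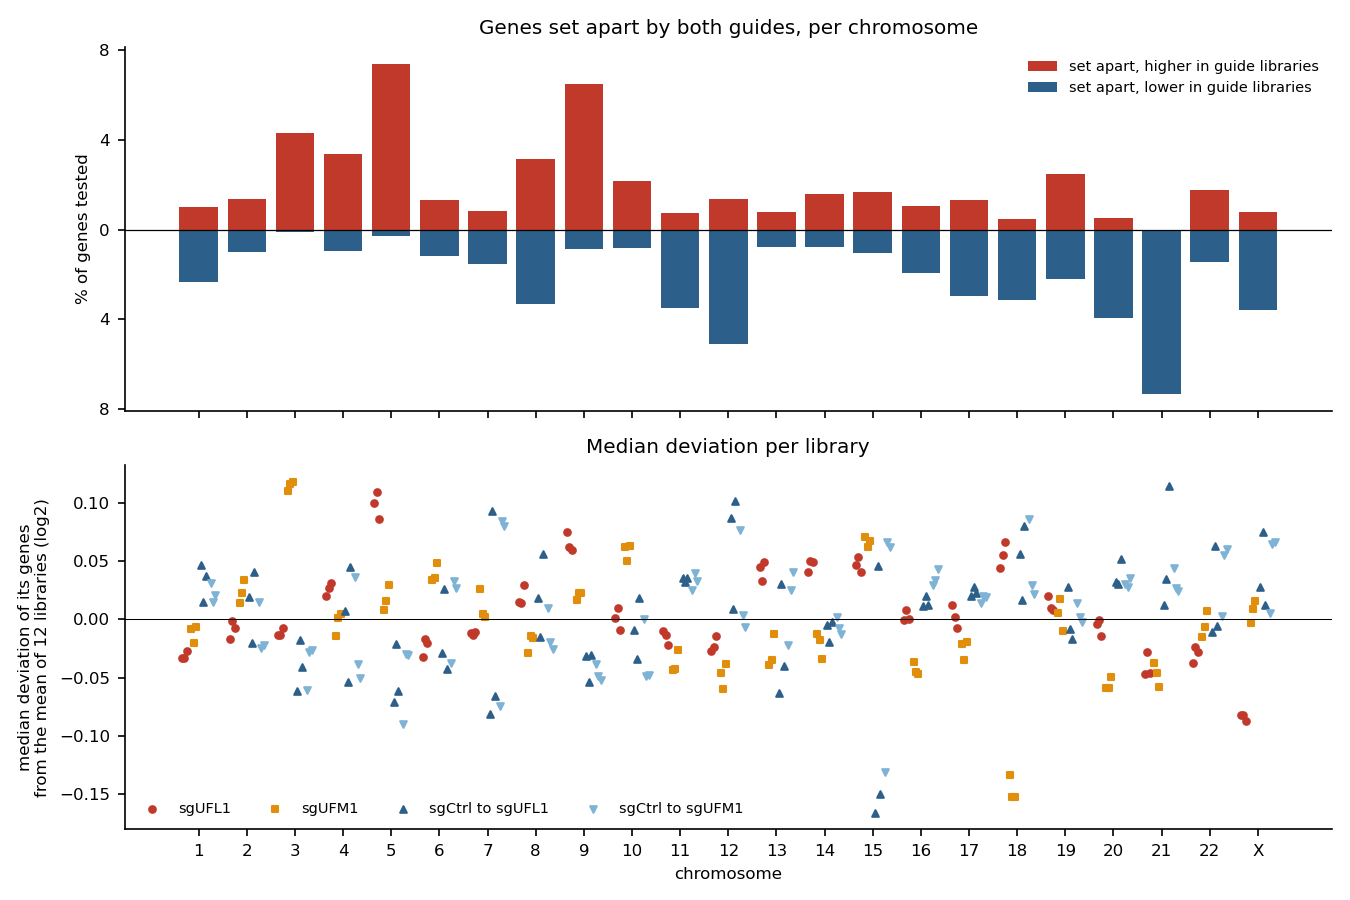
Upper panel, share of the genes tested on each chromosome that both guides set apart from all controls, upward in red and downward in blue. Lower panel, median deviation (log2) of each chromosome's genes from the mean of the 12 libraries, 1 point per library, with sgUFL1 in red, sgUFM1 in orange, and the controls to sgUFL1 and to sgUFM1 in dark and light blue. Chromosome 5 (51 of 690 upward, 7.39%, beside 2.08% of all genes tested) and chromosome 21 (11 of 150 downward, 7.33%, beside 2.02%) stand out above. Chromosome 15 separates 3 control libraries from the other 9 libraries below.

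Smaller stretches were sharper, to be read beside the 2.08% of all genes tested that were set apart upward and 2.02% downward. In windows of 10 Mb with at least 15 genes tested, the largest median log2 change was 0.40 over 28 genes at 0 to 10 Mb of chromosome 9, at 0.34 for sgUFL1 and 0.37 for sgUFM1. This window held CD274, the kinase gene JAK2 (0.63, adjusted p = 0.016), the mitochondrial adenylate kinase AK3 (0.59, adjusted p = 0.0042), CDC37L1 (0.60), UHRF2 (0.38) and RANBP6 (0.38), all set apart upward, so CD274 rose together with its neighbours. The lowest window was 10 to 20 Mb of chromosome 21, with a median of -0.29 over 16 genes and 5 genes set apart downward. They included the nuclear receptor corepressor NRIP1, which read 34.7, 37.5 and 32.0 CPM in sgUFL1 libraries and 20.6, 24.8 and 21.8 CPM in sgUFM1 libraries, against 48.0, 60.5 and 74.5 CPM (lowest, median, highest) in sgCtrl libraries. NRIP1 fell by 1.10 (adjusted p = 0.003), the signalling adaptor SAMSN1 by 1.80 (adjusted p = 0.0013) and the intestinal protease TMPRSS15 by 2.03 (adjusted p = 0.011), and the nearby adhesion gene NCAM2, just beyond 20 Mb, by 1.18 (adjusted p = 0.01). TMPRSS15, SAMSN1 and NCAM2 averaged under 5 CPM in guide libraries, so they met the 5 CPM minimum for naming only through the controls. EGR1, P4HA2 and PCDH1 lay among the genes of chromosome 5 between 130 and 150 Mb, where the medians of the 2 windows were 0.15 and 0.18. There 9 of 70 and 8 of 69 genes were set apart upward, with 0 downward. SELENOK lay at 50 to 60 Mb of chromosome 3 (median 0.22, 11 of 87 upward and 0 downward). CA12 lay at 60 to 70 Mb of chromosome 15 (median 0.21, 3 of 70 upward and 1 downward). SEC11A and ISG20 lay at 80 to 90 Mb of that chromosome (median 0.10, 3 of 55 upward and 0 downward), which was low in the control libraries given above.

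When each library's chromosome medians were subtracted, an alternative chosen after seeing the data, 232 genes were called higher and 199 lower, and 266 of the 455 shared genes stayed set apart and called. MMP1, CCL2, PDPN, FDFT1, GBP2, CD274, EGR1 and NRIP1 kept their calls (adjusted p at most 0.01), while 18 of the 70 named genes called did not, among them LSS (0.11), KLF4 (0.23), PDGFRB (0.084), LOX (0.18), MANF (0.23), SEC62 (0.18) and XPC (0.13). On chromosome 15, CA12 gave 0.53, ISG20 0.56 and SEC11A 0.25 with these medians removed, all still called (edgeR adjusted p = 0.0072, 0.0066 and 0.0196). A chromosome median does not remove a local stretch. The median log2 change was 0.08 over chromosome 9, against 0.40 in the window of CD274. Over chromosome 21 it was -0.08, against -0.29 in the window of NRIP1. The kept calls of CD274 and NRIP1 therefore do not bear on the shift of their windows. Chromosome copy number was not measured, and whether it differs between these cultures was not tested.

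The guides agreed on the shared genes by construction. Their difference from each other rests on the same library values that chose the genes, so its counts are a description. Of the 246 shared genes that were higher, 36 differed between sgUFM1 and sgUFL1 (14.6%), and of the 209 lower, 29 (13.9%), beside 14.2% of all genes tested (7.01% higher and 7.16% lower in sgUFM1). The change was larger in sgUFM1 libraries for 26 of the 36 (72.2%) and 18 of the 29 (62.1%), beside 1190 of 2109 (56.4%) over all genes tested. Median log2 changes over the higher genes were 0.39 for sgUFL1 and 0.44 for sgUFM1, and over the lower genes -0.33 and -0.33. In size most were modest, with 24 higher and 37 lower genes changed at least 2-fold.

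Against all 6 controls, sgUFL1 alone gave 771 genes higher (5.18%) and 731 lower (4.91%), 10.1% in all. On the same controls, sgUFM1 alone gave 1048 higher (7.04%) and 921 lower (6.19%), 13.2% in all. Set against their own controls, comparisons that share no library, sgUFL1 gave 973 higher (6.54%) and 927 lower (6.23%), 12.8% in all, and sgUFM1 gave 677 higher (4.55%) and 582 lower (3.91%), 8.46% in all. Both of these own-control comparisons had 103 genes higher (0.692% of genes tested), which is 10.6% of the sgUFL1 and 15.2% of the sgUFM1 list. They had 94 genes lower (0.632%), which is 10.1% and 16.2% of the lists. The shared genes were chosen from these same libraries, so their results in the own-control tests are a description. Among the shared genes, 99 of the 246 higher and 86 of the 209 lower passed both own-control tests. MMP1 (-1.78 and -2.59), CCL2 (-1.32 and -1.57), PDPN (-0.94 and -0.80), GBP2 (0.69 and 0.65), CD274 (0.61 and 0.58) and FDFT1 (-0.34 and -0.53) did so for sgUFL1 and sgUFM1, whereas IL1A (-1.54 and -1.01) passed for sgUFL1 (adjusted p = 0.012) but not for sgUFM1 (adjusted p = 0.077).

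**Figure D5:**
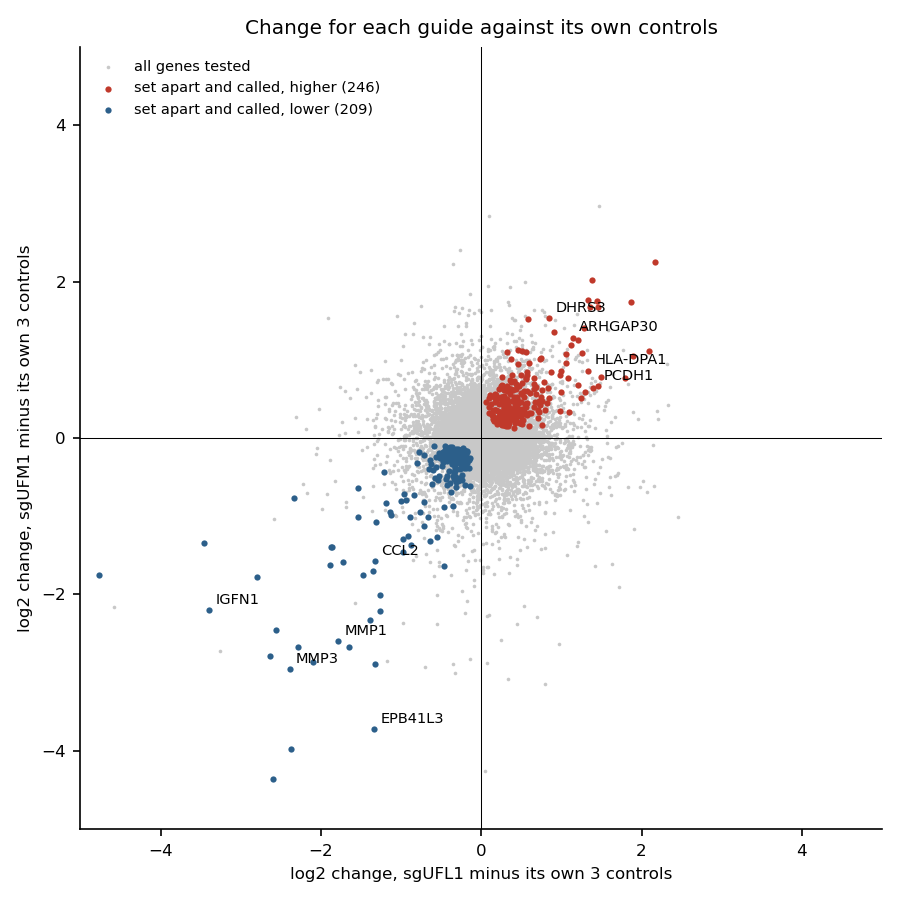
Log2 change of each of 14884 genes in sgUFL1 against its own 3 controls (horizontal) and in sgUFM1 against its own 3 controls (vertical), with the 246 higher (red) and 209 lower (blue) shared genes drawn over all genes (grey); 1 gene lies beyond the axes. The shared genes were chosen from the same libraries, so their place in the upper right and lower left describes the choice, and MMP1 lies at -1.78 and -2.59.

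Around the boundary of the rule, the gene set apart by the smallest gap upward was AP002761.4, at 4.59 to 5.62 CPM in guide libraries and 2.85 to 4.59 CPM in controls, and the nearest that missed was UBXN6, at 75.03 to 81.1 CPM and 66.9 to 75.05 CPM. Downward, PTPN11 was just inside (439 to 518.8 CPM in guide libraries, 518.9 to 565 CPM in controls) and COPS4 just outside (32.0 to 41.17 CPM in guide libraries, 41.16 to 50.4 CPM in controls).

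Some markers of other cell types differed between the groups, and their part in the results above was not tested. The summed FPKM of 12 fibroblast and endothelial markers was 4.50 to 6.62 in guide libraries and 3.44 to 4.48 in controls. Of 5 of these markers tested, 2 were called higher (40%, beside 2.49% of all genes), PDGFRB (0.57, adjusted p = 0.022) and PECAM1 (1.12, adjusted p = 0.046). In sgUFM1 alone, COL3A1 (-1.49) and KDR (-0.95) of this list were lower, and neither passed the pooled test. PECAM1, an endothelial adhesion molecule, read 10.9, 9.23 and 9.69 CPM in sgUFL1 libraries and 24.9, 25.4 and 29.1 CPM in sgUFM1 libraries, against 5.60, 8.57 and 10.8 CPM (lowest, median, highest) in sgCtrl libraries, so the sgUFL1 libraries overlapped the controls, and its call held in 3 of the 12 fits that left out 1 library. The defining markers DCN and LUM were at 0 in all guide libraries and CDH5 was at or near 0. TFF2, a trefoil peptide of secretory epithelium, was called higher by 1.28 (adjusted p = 0.033) at 2.38 to 7.64 CPM in guide libraries and 0.878 to 2.95 CPM in controls. The groups overlapped, and the call held in 6 of the 12 fits that left out 1 library. TFF2 was the 1 gene called of 10 secretory epithelial genes tested (10% higher, beside 2.49% of all genes). The median of this list was -0.33 for sgUFL1 and 1.38 for sgUFM1. Of the 10, sgUFM1 alone had 8 higher and sgUFL1 alone 0, and 9 differed between the guides, beside 14.2% of all genes. In bulk RNA, fewer cells that express a gene and less RNA per cell cannot be told apart. Of the 70 named genes called in the pooled test, 49 kept their call in all 12 fits that left out 1 library, among them all 28 ranked genes, and 42 kept it without the GC and length offsets. The losses given above included, 28 named genes were not called without these offsets. They included FN1 (0.36, adjusted p = 0.057), SELENOK (0.34, 0.057), IFITM1 (0.65, 0.067), SIGLEC15 (-0.83, 0.072), HSPB1 (0.57, 0.098) and SEC11A (0.27, 0.11), so that the changes of IFITM1 and HSPB1 were larger there without a call.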

How the data were processed

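RNA was measured in 12 libraries of MDA-MB-231 cells. The authors deposited a table of raw read counts per gene and a table of FPKM values (fragments scaled by gene length and library size). The submitters' processing notes name fastp 0.20.1, STAR 2.7.7a, featureCounts 2.0.0 and the builds hg38 and GRCh38; their roles, settings and strand handling are not given there. The columns were named as in the FPKM table, because the deposited tables exchange the names of 6 libraries.

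Genes were filtered with filterByExpr, scaled by TMM and tested with edgeR 4.0.16 (R 4.3.3; quasi-likelihood test, Benjamini-Hochberg adjusted p under 0.05), 6 guide against 6 control libraries, with per-library lowess offsets (span 0.3) for GC content and gene length. Corrected CPM are counts scaled to library size after removing those trends. Models with 3 and 4 groups gave each guide against all controls, the guides against each other, and each guide against its own controls. Totals of 15342793 to 18033331 counts set the precision. The text names the targeted genes, the 14 highest and 14 lowest shared protein-coding genes averaging at least 5 CPM in either group, by the smaller of the guides' changes, and up to 3 called genes of each list; further list members, GBP1, GBP3, CD74, CIITA, other HLA genes, WTAPP1 and the genes of the chromosome windows were named after their values were seen. Members and lists were chosen with earlier results of these data known. The fit was tested on simulated data. Alternatives were other scalings, filters, offsets and names, DESeq2 1.42.0, limma 3.58.1 on log2(FPKM + 0.5), replicate and experiment blocks, and leaving libraries out. A few list members are not reported here by name, though the list counts include them.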

Additional observations from a re-analysis of the deposited data

Results flagged for a closer look

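Among 144 sets of 6 libraries (guides or controls, for the 72 named genes), 3 held a library far from the other 5 by Dixon's test; chance flags about 1 set in 20. HTRA1 was lowest in sgUFM1 replicate 3 among the guide libraries, at 19.4 corrected CPM. HSPB1 was highest in sgCtrl to sgUFM1 replicate 1 among the controls, at 140.6 CPM, and MYH13 in sgCtrl to sgUFL1 replicate 1, at 8.76 CPM.

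The guides differed from each other in the edgeR test for 18 named genes, given here as log2 of sgUFM1 minus sgUFL1. Among genes that fell in both, the fall was deeper in sgUFM1 libraries for EPB41L3 (-2.43), KRTAP2-3 (-1.48), SAMSN1 (-0.91), MMP1 (-0.82), NRIP1 (-0.63), CCL2 (-0.33) and CDC20 (-0.21). Among genes that rose in both, DHRS3 (0.68), CYTH4 (0.73) and EGR1 (0.48) were higher in sgUFM1 libraries and CA12 (-0.32) in sgUFL1 libraries. PECAM1 (1.41), TFF2 (1.08) and DSP (-0.41) were called in the pooled test but past the threshold in 1 guide alone, as were GDF15 (0.76) and EGFR (0.27). The targeted genes differed by 0.62 for UFL1 and -0.76 for UFM1.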

How the results depend on the processing

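Of the values of named genes under the alternatives, 1639 kept direction and side of the threshold, 557 kept direction without a call, and 32 reversed, all under the names of the count table. Counts are given as higher and lower. The pooled test called 156 and 104 genes without offsets, 304 and 222 without a count filter, 645 and 581 with DESeq2 and 936 and 883 with a 4-group model. With limma it called 100 and 65 on log2(FPKM + 0.5), 99 and 66 with a pseudocount of 0.1, and 103 and 63 with 1. Unfiltered limma on log2(FPKM + 0.5) called 47 and 29. With edgeR it called 228 and 238 against the sgUFL1 controls alone, and 59 and 33 against the sgUFM1 controls alone. Genes set apart were 193 lower without offsets, 181 lower with limma at each pseudocount, 792 and 923 against the sgUFL1 controls and 675 and 611 against the sgUFM1 controls. Genes both set apart and called were 135 and 86 without offsets, 121 lower without a count filter, 92 and 59, 91 and 61, and 95 and 58 with limma at pseudocounts of 0.5, 0.1 and 1, 47 and 29 with limma unfiltered, and 59 and 33 against the sgUFM1 controls. Without offsets, sgUFM1 gave 320 and 236 against all controls, the guides differed for 567 and 580, and sgUFL1 gave 3222 and 3189 against its own controls. The cause of these shifts was not tested.

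Under the count-table names the pooled test called 0 and 0, with 43 and 55 set apart and 0 and 0 both; sgUFL1 gave 0 and 0 against all controls and 39 and 2 against its own, sgUFM1 gave 1160 and 1227 against its own, the guides differed for 326 and 266, and 1 and 0 were shared between own-control comparisons. With these names, alternatives chosen after seeing the data gave 84 and 90 by DESeq2 (21 and 25 also set apart) and 1 and 0 by limma (49 and 51 set apart, 1 and 0 both). Because this naming exchanges sgUFL1 libraries with controls, the change of a shared gene is smaller or reversed there by construction. The log2 changes that reversed there were FTL 0.062, CTGF -0.11, EGFR 0.097, AMOTL2 0.02, FN1 -0.090, TALDO1 0.0056, HSPB1 -0.032, DAD1 -0.024, ADM 0.11, DSP -0.28, LOX -0.15, CD274 -0.18, TNFAIP3 0.021, IGFN1 0.35, GDF15 0.18, CA12 -0.23, CLDN7 -0.027, MMP3 0.35, PCK2 -0.039, CDC42EP5 -0.022, HTRA1 -0.082, PDPN 0.096, GNAO1 -0.042, HSD17B7 0.042, GPC4 -0.029, SUSD3 -0.38, PCDH1 -0.23, HLA-DPA1 -0.22, HLA-F -0.39, IL1A 0.17, ESRP1 -0.39 and, not called under either naming, UFL1 0.24.

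Also chosen after seeing the data, leaving out the 2 crossing controls gave 120 and 105 called, 472 set apart lower and 120 and 102 both; own-control counts became 2242 and 1999 for sgUFL1, 1460 and 1670 for sgUFM1, and 291 and 229 shared. Removing chromosome medians gave 232 and 199 called. Same-numbered libraries did not all deviate together (r from -0.27 to 0.50), so pairing by number was neither shown nor excluded. With the replicate block, 315 and 240 genes were called. Leaving out each library in turn gave 227 to 304 and 169 to 257 called, 352 to 394 and 343 to 411 set apart, and 198 to 246 and 152 to 208 both. It gave 243 to 834 and 143 to 833 for sgUFL1 and 497 to 1097 and 408 to 955 for sgUFM1 against all controls, 504 to 1247 and 481 to 1293 between guides, 434 to 1355 and 331 to 1230 for sgUFL1 and 287 to 945 and 224 to 832 for sgUFM1 against own controls, and 41 to 169 and 42 to 129 shared. The lowest pooled counts came without sgUFM1 replicate 1. Genes under about 1 CPM, such as ESRP1 and IL1A, rest on few reads.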
